A study of Mus musculus with 2 samples.

Results

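The genes described here are the 10 members of the MHC class I presentation set, H2-D1, H2-K1, B2m, Tap1, Tap2, Tapbp, Psmb8, Psmb9, Psmb10 and Nlrc5, measured by single-cell RNA sequencing of mouse lung. They were chosen by symbol among the 55357 genes listed in the deposited matrices, and all 10 were found. Class I molecules carry peptides from inside a cell to its surface, where CD8 T cells read them. H2-D1 and H2-K1 encode heavy chains, and B2m encodes the light chain beta-2-microglobulin that pairs with them. Psmb8, Psmb9 and Psmb10 are the catalytic subunits of the immunoproteasome, which cuts proteins into peptides. Tap1 and Tap2 form the transporter that brings the peptides into the endoplasmic reticulum, and Tapbp, or tapasin, helps load them. Nlrc5 is a transactivator of these genes, and interferons are their best known inducers. In the lung, endothelial and immune cells are known for high class I expression.

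The treated library came from lungs of female BALB/c mice with orthotopic K7M2 osteosarcoma that were given 1V209-Cho-Lip, which the series title calls a TLR7 agonist nanomedicine. TLR7 is an endosomal receptor for single-stranded RNA. The control library came from mice of the same sex and strain with the same tumour that were given PBS. Each library pooled the lungs of 3 mice, and each group had 1 library, so no difference could be tested against biological variation and no p-value is given. The effect of treatment and any difference between the 2 pooled libraries cannot be told apart. K7M2 is a mouse osteosarcoma line, the tumour grew in its host's own strain, and dose, timing and mouse age are not given in the sources used here.

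In the mm10 genome (GENCODE vM21), 7 of the 10 members lie in the major histocompatibility complex on chromosome 17. H2-K1 spans 33996017 to 34000347 on the minus strand, and H2-D1 spans 35262730 to 35267499 on the plus strand. Between them lie Psmb9 (34181987 to 34187764, minus strand), Tap1 (34187553 to 34197225, plus strand), Psmb8 (34197721 to 34201454, plus strand) and Tap2 (34203527 to 34216321, plus strand), while Tapbp (33915899 to 33929292, plus strand) lies outside H2-K1. B2m is on chromosome 2 (122147686 to 122153083, plus strand). Psmb10 (105935735 to 105938444, minus strand) and Nlrc5 (94434356 to 94527272, plus strand) are on chromosome 8. The annotated 5′ ends of Tap1 and Psmb9 overlap head to head, so these genes are transcribed away from a shared promoter region.

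The stretches below show DNA upstream of the RefSeq starts of several members. They are RefSeq sequences of build GRCm38.p6, written 5′ to 3′ on the strand of the first gene named, and they come from the C57BL/6 reference genome rather than from BALB/c. Capitals mark matches, on either strand, to letters of known class I promoter elements: an interferon-stimulated response element (GAAA, any 2 bases, GAAA), an NF-kB site (GGG, any 2 bases, TT, any base, CC), an X2 box (TGACG) and a CCAAT box. The H2-K1 stretch is chr17:34000348-34000597 and the B2m stretch is chr2:122147437-122147686. The H2-D1 stretch (chr17:35262913-35262942) lies upstream of the RefSeq start at 35263094. The Tap1 and Psmb9 stretch (chr17:34187457-34187486) lies between their RefSeq starts at 34187556 and 34187330. Each shows 30 bases around 1 match. Both lie inside the longer GENCODE spans given above, that of H2-D1 and that of Psmb9.
H2-K1: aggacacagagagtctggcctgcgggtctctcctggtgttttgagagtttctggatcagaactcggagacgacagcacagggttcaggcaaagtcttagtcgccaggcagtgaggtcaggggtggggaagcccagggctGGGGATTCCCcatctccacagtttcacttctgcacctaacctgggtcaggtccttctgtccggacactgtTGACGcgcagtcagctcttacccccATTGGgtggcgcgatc
B2m: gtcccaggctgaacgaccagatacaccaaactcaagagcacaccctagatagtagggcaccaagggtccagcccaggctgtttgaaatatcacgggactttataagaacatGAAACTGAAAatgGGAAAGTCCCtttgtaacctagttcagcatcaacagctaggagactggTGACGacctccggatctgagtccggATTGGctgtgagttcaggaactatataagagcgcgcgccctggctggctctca
H2-D1: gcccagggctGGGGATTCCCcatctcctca
Tap1 and Psmb9: gcccagagacaggTGACGacagagggtcct
Windows of 250 bases before to 50 bases after the start were on hand for 8 members, and Tap2 and Nlrc5 were not among them. The response element letters were found in 1 of the 8 windows, that of B2m, against 3.5% of all 27025 promoters. The NF-kB letters were found in 3 windows, those of H2-D1, H2-K1 and B2m, against 4.7% of all promoters. The X2 letters were found in 5 windows (H2-D1, H2-K1, B2m, Tap1 and Psmb9) against 21.0%, and the CCAAT letters in 6 windows against 37.9%. A gamma-activated sequence, or GAS element (TTCNNNGAA), was found in Psmb8 alone of the 8, against 8.5% of all promoters. None of the letters overlapped another motif in the printed stretches. These are matches of letters, not measured binding sites. Only exact matches were counted, so a window without one can still hold a variant of the element.

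After cell filters, 13720 cells of the 1V209-Cho-Lip library and 14560 cells of the PBS library remained, with 54829517 and 58103275 UMIs and median depths over all barcodes of 2645.5 and 2376.0 UMIs. A UMI is a molecular tag that counts 1 captured RNA molecule, and levels are given as CPM, the UMIs of a gene per 1000000 UMIs of all genes in the same cells. Each interval in parentheses is a 95% interval for counting error only, exact Poisson for a level and exact binomial for a ratio. A ratio is the 1V209-Cho-Lip level over the PBS level, and a gene was called higher or lower past 1.5-fold where it had at least 20 UMIs over both libraries. Cells were sorted into types by marker genes, and a type name below means cells gated by its markers (neutrophil-like and so on). The comparison used 17 types with at least 50 cells in each library, and in none of them did another type's markers outnumber its own among the 10 genes with the largest fold over the other cells. Alveolar fibroblasts, B cells and Car4 capillary endothelial cells had no marker of any type among those 10 genes, although 6, 8 and 7 of their own markers were detected. The same markers had selected the cells, and barcodes of 2 lineages were left out, so this is no independent check of the gates. The libraries shared 268 cell barcodes, 1.95% and 1.83% of their barcodes. Neutrophils made up 33.8% of 1V209-Cho-Lip cells and 11.3% of PBS cells. In the 16 other types, the summed level of 10 neutrophil markers ran from 260 to 1384 CPM in 1V209-Cho-Lip cells and from 95.9 to 584 CPM in PBS cells, and it was higher in the 1V209-Cho-Lip library in 16 of 16 types. This difference in neutrophil RNA moves with every comparison below, and its part in them was not tested. Summed erythroid markers ran the other way, from 10.7 to 360 CPM against 301 to 2280 CPM.

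Over all cells, every member was at a lower level in the 1V209-Cho-Lip library, by little for the heavy chains and by more for the immunoproteasome, although H2-D1 and H2-K1 stood at log2 ratios of 0.18 and 0.04 when scaled to the median gene. Psmb10 was at 115 CPM in 1V209-Cho-Lip cells and 194 CPM in PBS cells, a ratio of 0.593 (0.575 to 0.612). Psmb8, its partner subunit, was at 265 and 393 CPM, which gives a ratio of 0.673 (0.659 to 0.687). H2-D1 was nearly level at 2115 CPM in 1V209-Cho-Lip cells and 2140 CPM in PBS cells. The ratios of the other members were 0.733 for Nlrc5, 0.761 for Psmb9, 0.762 for Tap2, 0.807 for Tapbp, 0.821 for B2m, 0.852 for Tap1 and 0.899 for H2-K1. Psmb10 alone was called lower and no member was called higher, where 19.7% of all 21078 genes were called lower and 13.8% higher. The median log2 ratio of the members was -0.35, and that of all genes was -0.20. With neutrophil-gated cells left out, none of the 10 was called.

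By cell type, within the types compared between the libraries, the class I molecule and its processing genes had their own orders. Car4 capillary endothelial cells, the large flat cells of the gas exchange surface, had the highest H2-D1 level in both libraries, 4871 CPM in 1V209-Cho-Lip and 4339 CPM in PBS. General capillary endothelial cells came second, with 4262 and 4129 CPM. Among the compared types, the same types held the first and second places for H2-K1 and B2m in both libraries. Natural killer (NK) cells, regulatory T cells and nonclassical monocytes followed for H2-D1, at 3300, 3123 and 3271 CPM in 1V209-Cho-Lip cells and at 2813, 3142 and 3023 CPM in PBS cells. Alveolar fibroblasts, at 570 and 629 CPM, and club cells, at 82.2 and 71.5 CPM, were at the low end. Club cells spent 64.2% of their UMIs on the secretoglobin gene Scgb1a1 in 1V209-Cho-Lip and 66.5% in PBS, which lowers the CPM of every other gene there. For H2-D1, 8 of 16 neighbouring pairs in the order had overlapping intervals in 1V209-Cho-Lip cells and 6 of 16 in PBS cells.

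Among the 17 compared types, the peptide transporter and its regulator peaked in T cells instead. Of these types, regulatory T cells had the highest Tap1 level, at 125 CPM (1V209-Cho-Lip) and 229 CPM (PBS), and the highest Tap2 level, at 150 and 216 CPM. Nlrc5 was highest in CD8 T cells, with 118 and 170 CPM, followed by CD4 T cells, with 101 and 131 CPM, and regulatory T cells, with 96.7 and 88.8 CPM. Tapbp was highest in classical monocytes, with 257 and 272 CPM. In these less abundant genes most neighbours in the order could not be told apart, with 14 to 16 of 16 neighbouring pairs overlapping for Tap1, Tap2 and Nlrc5. Neutrophils stood low for Psmb10, at 17.3 CPM in 1V209-Cho-Lip and 37.0 CPM in PBS, next to club cells at 17.1 and 18.4 CPM.

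**Figure D1:**
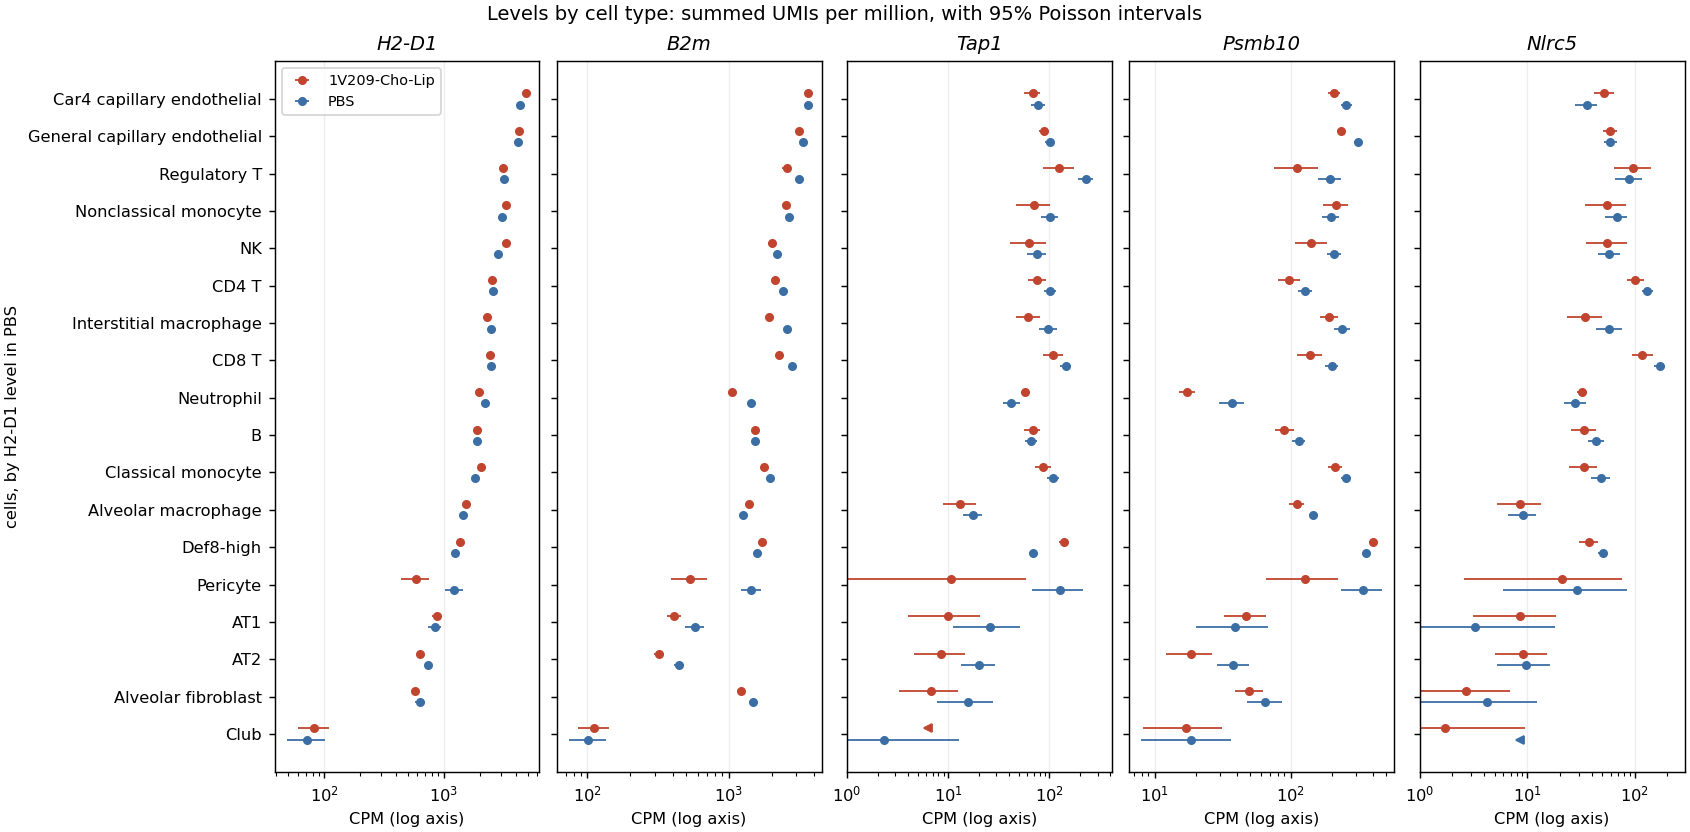
Levels of 5 members in each gated cell type and in Def8-high cells, as CPM from summed UMIs on log axes, with 1V209-Cho-Lip above PBS in each row and 95% Poisson intervals as bars. Rows follow the H2-D1 level in PBS, from Car4 capillary endothelial cells (4871 and 4339 CPM) down to club cells (82.2 and 71.5 CPM), and a triangle marks the upper limit where no UMI was seen.

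Within types, 156 of the 170 combinations of member and type had enough UMIs. In 124 of the 156 the level was lower in the 1V209-Cho-Lip library, and 23 combinations (14.7%) were called lower against 1 (0.641%) called higher. Over all genes and types, 11.5% of combinations were called lower and 13.1% higher. The interval lay below 1 in 73 of the 156 combinations and above 1 in 10. Of all genes, 3.70% (club cells) to 24.2% (neutrophils) had an interval below 1. An interval above 1 was found for 7.38% (nonclassical monocytes) to 14.6% (general capillary endothelial cells). The median log2 ratio of all genes ran from -0.20 in neutrophils to 0.16 in club cells. Intervals narrow with more UMIs, and the members were not matched to genes of like UMI number.

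The heavy chains differed least, by their median ratios. H2-D1 was below 1 in 8 of 17 types with a median ratio of 1.00, and its interval was above 1 in 6 types and below 1 in 4. Its highest ratio was in NK cells, where it was at 3300 CPM in 1V209-Cho-Lip and 2813 CPM in PBS, a ratio of 1.17 (1.10 to 1.25). In Car4 capillary endothelial cells both heavy chains were higher, H2-D1 by a ratio of 1.12 (1.09 to 1.16) and H2-K1, at 4246 and 3826 CPM, by 1.11 (1.08 to 1.15). In B cells they were level, with H2-D1 at 1898 and 1896 CPM and H2-K1 at 1683 and 1681 CPM. B2m was lower more often, below 1 in 15 of 17 types with a median ratio of 0.879 and 11 intervals below 1. It was higher in alveolar macrophages, at 1393 CPM in 1V209-Cho-Lip and 1259 CPM in PBS, a ratio of 1.11 (1.06 to 1.16). BALB/c mice carry the d haplotype of these genes while the mm10 reference carries the b haplotype, so reads of the heavy chains may be split among near-identical copies and each heavy chain value is uncertain. The sum of 11 class I heavy chain genes had ratios of 1.11 (1.09 to 1.13) in Car4 capillary endothelial cells, 0.987 (0.961 to 1.01) in B cells and 1.10 (1.05 to 1.14) in NK cells. The ratio of this sum was lowest in pericytes, at 0.532 (0.437 to 0.645), and in neutrophils, at 0.790 (0.774 to 0.806). Next came interstitial macrophages, at 0.802 (0.771 to 0.835), and AT2 cells, at 0.820 (0.777 to 0.866). Intervals also lay below 1 in alveolar fibroblasts (0.914, 0.854 to 0.979) and CD4 T cells (0.944, 0.917 to 0.971). In classical monocytes the interval lay above 1 (1.05, 1.02 to 1.09). The median log2 ratio of all genes was -0.20 in neutrophils, and 1 PBS pericyte barcode held 45 of 126 H2-D1 UMIs.

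Psmb8 and Psmb10 had intervals below 1 in more types than any other member. Psmb8 was below 1 in 17 of 17 types, with ratios from 0.263 in pericytes to 0.951 in B cells, a median of 0.774 and 13 intervals below 1. The pericyte value rests on 6 UMIs in 1V209-Cho-Lip and 25 UMIs in PBS, of which 1 barcode held 12, and without that barcode the PBS level was 137 CPM in place of 241 CPM. Psmb10 was below 1 in 14 of 16 types, with a median of 0.761 and 13 intervals below 1. Psmb9 was below 1 in 14 of 15 types, with a median of 0.821 and 8 intervals below 1. Psmb9 in alveolar type 1 (AT1) cells was the 1 combination called higher, where 19.8% of all genes were called higher. It rests on 28 UMIs in 1V209-Cho-Lip and 6 UMIs in PBS, and its ratio of 2.06 has an interval that holds 1 (0.835 to 6.07). Psmb8 in the same cells was called lower, where 10.7% of all genes were, at 82.9 CPM in 1V209-Cho-Lip and 130 CPM in PBS with a ratio of 0.639 (0.420 to 0.981), and its log2 ratio was -0.43 with 1 more detected marker in the gate. Of the loading genes, Tap1 had a median ratio of 0.751 over 14 types, Tap2 0.844 over 15 and Tapbp 0.909 over 15. In alveolar macrophages Tap2 was called lower, where 7.38% of all genes were, at 24.1 CPM in 1V209-Cho-Lip and 48.8 CPM in PBS with a ratio of 0.493 (0.359 to 0.667). In nonclassical monocytes Tap2 was called lower too, where 13.5% of all genes were, but from 16 and 70 UMIs and with an interval that holds 1 (0.321 to 1.03). The regulator Nlrc5 had a median of 0.950 over 13 types, and it was higher in Car4 capillary endothelial cells, at 51.8 CPM in 1V209-Cho-Lip and 35.6 CPM in PBS, a ratio of 1.46 (1.06 to 2.01).

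**Figure D2:**
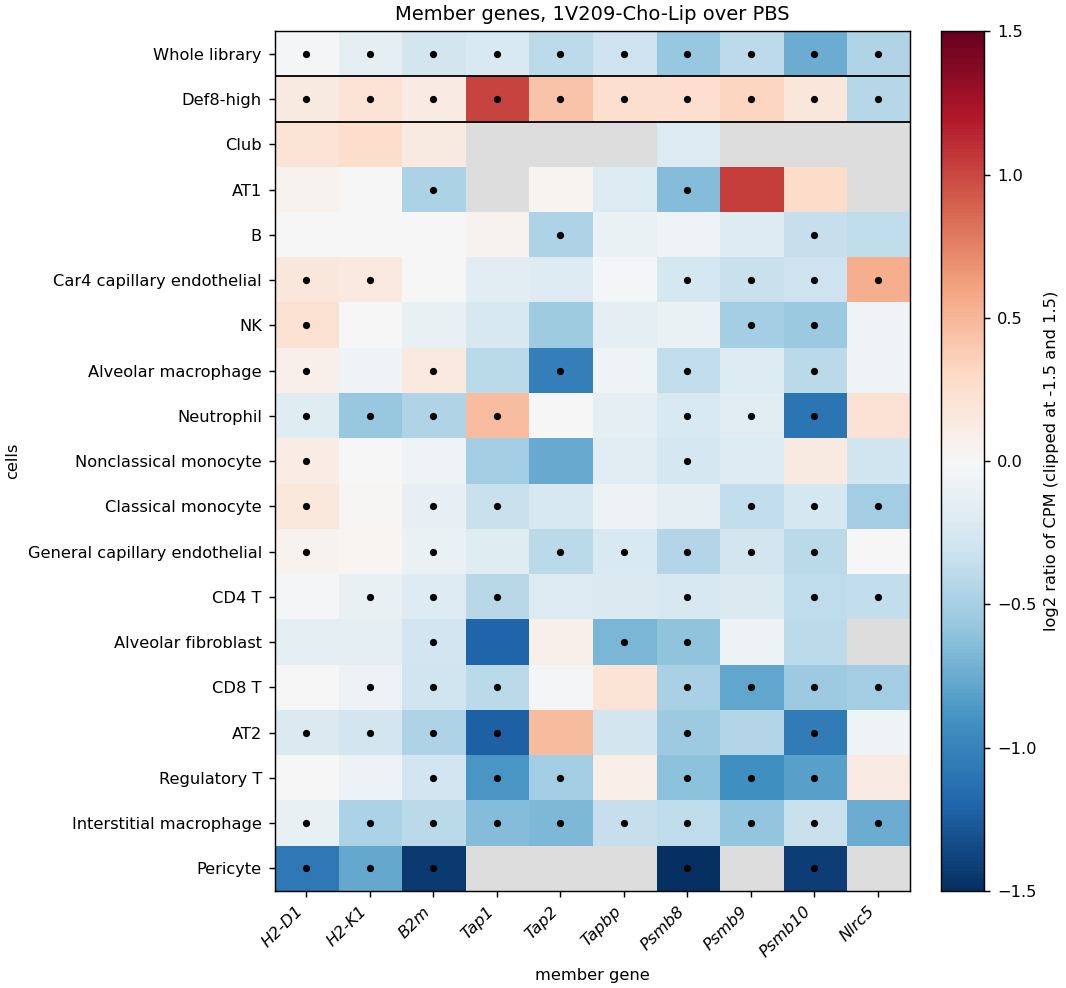
The log2 ratio of CPM, 1V209-Cho-Lip over PBS, for each member (columns) in all cells, Def8-high cells and 17 gated types (rows, by median), clipped at -1.5 and 1.5. A dot marks an interval that leaves out 1, and grey marks under 20 UMIs. The Psmb8 column is blue in 17 of 17 types, and in Def8-high cells 9 of 10 members are red.

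Interstitial macrophages, tissue macrophages outside the airspace that carry complement C1q, were the type in which all 10 members were lower with intervals below 1. Of the 10, 4 were called lower, where 13.3% of all genes were. Tap1 was at 62.0 CPM in 1V209-Cho-Lip and 97.7 CPM in PBS, a ratio of 0.635 (0.445 to 0.899). Tap2 had a ratio of 0.629, Psmb9 of 0.666 and Nlrc5 of 0.595. B2m was at 1930 and 2556 CPM, which gives a ratio of 0.755 (0.709 to 0.804), and H2-K1 at 1725 and 2386 CPM, which gives a ratio of 0.723 (0.677 to 0.772). The median log2 ratio of the members was -0.44 and that of all genes -0.02, and 9.29% of all genes had an interval below 1. These cells numbered 129 and 220, with median depths of 5719 UMIs in 1V209-Cho-Lip and 2494 UMIs in PBS. The part of this depth difference was not tested. With CPM averaged over single cells, Psmb9 alone was still called, at a log2 ratio of -0.67, while Tap1, Tap2 and Nlrc5 stood at -0.26, -0.41 and -0.29. With cells thinned to 1000 UMIs, H2-K1 stood at -0.04 in place of -0.47, Psmb10 at -0.09 in place of -0.33 and Psmb9 at -1.33 in place of -0.59. Summed neutrophil markers in these cells were at 643 CPM in 1V209-Cho-Lip and 353 CPM in PBS.

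In regulatory and CD8 T cells, immunoproteasome genes were lower while H2-D1 was level. In regulatory T cells, 4 of 10 members were called lower, where 12.8% of all genes were. Psmb9 was at 236 CPM in 1V209-Cho-Lip and 446 CPM in PBS, a ratio of 0.530 (0.398 to 0.699), and Tap1 at 125 and 229 CPM, which gives a ratio of 0.547 (0.364 to 0.801). Psmb10 had a ratio of 0.572 and Psmb8 of 0.648, while H2-D1 was at 3123 and 3142 CPM. With 1 more detected marker in the gate, the log2 ratio of Psmb8 was -0.53 and that of Psmb9 -0.58, at the threshold. In CD8 T cells, Psmb9 alone was called lower, where 11.1% of all genes were, at 180 and 309 CPM with a ratio of 0.581 (0.472 to 0.710). B2m was lower in CD8 T cells too, at 2255 and 2773 CPM, which gives a ratio of 0.813 (0.767 to 0.862), and H2-D1 was at 2443 and 2461 CPM. In CD4 T cells all 10 ratios were below 1 and none was called, where 7.59% of all genes were called lower. The median log2 ratio there was -0.22 for the members and 0.03 for all genes.

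Neutrophils differed among members. Tap1 was higher, at 58.0 CPM in 1V209-Cho-Lip and 42.1 CPM in PBS, a ratio of 1.38 (1.12 to 1.71). Psmb9, which shares its promoter region with Tap1, was at 134 and 151 CPM, which gives a ratio of 0.892 (0.797 to 1.000). H2-K1 was lower, at 1343 and 1994 CPM, which gives a ratio of 0.674 (0.653 to 0.695), and B2m at 1050 and 1433 CPM, which gives a ratio of 0.733 (0.707 to 0.761). Psmb10 was the 1 member called lower, with a ratio of 0.469 (0.366 to 0.606), where 24% of all genes were. All neutrophil genes together had a median log2 ratio of -0.20, and scaling to the median gene moved every neutrophil log2 ratio up by that amount, to 0.66 for Tap1, -0.37 for H2-K1, -0.25 for B2m and -0.89 for Psmb10. That scaling turned H2-D1 (-0.18), Tapbp (-0.14) and Psmb9 (-0.17) to 0.02, 0.06 and 0.03. Granule-rich neutrophils, which carry the transcripts of maturing cells, numbered 50 in 1V209-Cho-Lip and 14 in PBS, and without them H2-K1 was at 1369 and 2039 CPM.

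In lining and stromal cells the counts were smaller. In alveolar type 2 (AT2) cells, the surfactant-making cells, Tap1 and Psmb10 were called lower, where 10.3% of all genes were. Tap1 had 13 UMIs in 177 1V209-Cho-Lip cells and 29 UMIs in 221 PBS cells, for a ratio of 0.426 (0.203 to 0.846), and Psmb10 had a ratio of 0.484 (0.296 to 0.776). B2m in AT2 cells was at 321 and 442 CPM, which gives a ratio of 0.725 (0.643 to 0.817). In alveolar fibroblasts, Tap1, Tapbp and Psmb8 were called lower, where 12.0% of all genes were, and the interval of Tap1 held 1. Tapbp there had a log2 ratio of -0.69, against -0.41 with CPM averaged over single cells. In pericytes, the cells that wrap capillaries, all 5 measured members were called lower, where 17.8% of all genes were, with B2m at 528 and 1430 CPM. These values rest on 54 and 52 cells, and 1 PBS barcode of 8533 UMIs held 63 of the 148 B2m UMIs. Without it B2m in PBS pericytes was at 895 CPM, the log2 ratio was -0.76 in place of -1.44, H2-K1 and H2-D1 were no longer called, and Psmb8 had under 20 UMIs. With CPM averaged over single cells, B2m stood at -0.53, H2-K1 at -0.28 and Psmb10 at -0.44, short of the threshold.

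The balance of immunoproteasome and constitutive subunits can be read as the share of UMIs that the immunoproteasome gene takes of its catalytic pair. Psmb8 replaces Psmb5, Psmb9 replaces Psmb6 and Psmb10 replaces Psmb7. These are shares of UMIs, not of protein, and serve only to compare cells. The median share over 17 types was 78.5% in 1V209-Cho-Lip and 79.9% in PBS for Psmb8, 50.1% and 51.8% for Psmb9, and 60.9% and 66.6% for Psmb10. The share was lower in the 1V209-Cho-Lip library in 15, 14 and 12 of the 17 types. For most types the 2 intervals overlapped. They stood apart for Psmb8 in alveolar macrophages, at 57.7% (53.7 to 61.7) in 1V209-Cho-Lip and 66.1% (63.6 to 68.5) in PBS. They stood apart for Psmb10 in alveolar macrophages, at 57.6% and 66.6%, and in neutrophils, at 38.8% (34.6 to 43.1) and 55.6% (47.8 to 63.2). Across types the shares ranged far more widely than between libraries, for Psmb9 from 4.92% in club cells to 82.7% in neutrophils of the 1V209-Cho-Lip library and from 7.50% in AT1 cells to 82.2% in neutrophils of the PBS library.

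In Def8-high cells, described next, the Psmb9 share was 49.5% (47.0 to 52.0) in 1V209-Cho-Lip and 40.8% (39.4 to 42.3) in PBS, the Psmb8 share 69.1% and 65.0%, and the Psmb10 share 64.4% and 61.0%.

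**Figure D3:**
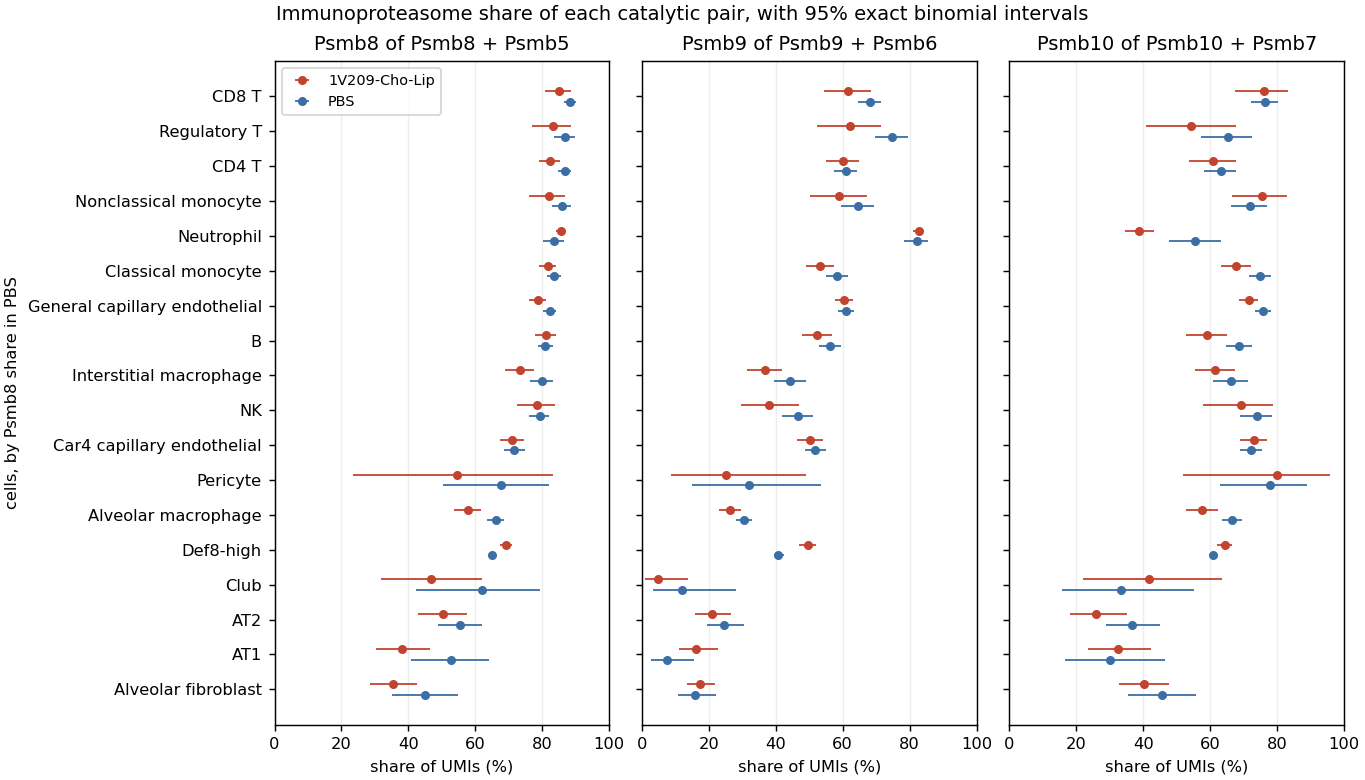
The share of UMIs taken by each immunoproteasome gene of its catalytic pair, by cell type, with 1V209-Cho-Lip above PBS and 95% exact binomial intervals as bars. Neutrophils are at 82.7% and 82.2% for Psmb9 but at 38.8% and 55.6% for Psmb10.

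Def8-high cells were taken as those with at least 100 UMIs of Def8, a lysosome positioning gene. There were 40 such cells in the 1V209-Cho-Lip library and 128 in the PBS library, with median depths of 69996 and 58278 UMIs, and the nearest cells inside and outside the minimum had 123 and 86 Def8 UMIs in 1V209-Cho-Lip and 100 and 97 in PBS. They expressed the collagen gene Col1a1, at 913 CPM in 1V209-Cho-Lip and 1156 CPM in PBS, and the high-mobility group gene Hmga2, at 243 and 295 CPM. Col1a2 was at 1173 and 1222 CPM, Crabp2 at 794 and 916 CPM and the bone matrix gene Spp1 at 845 and 1168 CPM. Runx2, the transcription factor of the bone lineage, was at 31.1 and 29.0 CPM. Its partner Sp7 was at 0.366 and 0.382 CPM, Alpl was at 2.20 and 2.16 CPM, and the bone matrix genes Ibsp and Bglap were at 0. The markers thus went both ways and do not give these cells a cell type. Scrublet, a doublet caller, marked 2 and 22 of them. The leukocyte gene Ptprc had a UMI in 18 of the 40 and 59 of the 128 cells. Summed neutrophil markers were at 779 and 130 CPM, with 10 of 10 listed genes detected in both libraries. Classical monocyte markers were at 1036 and 799 CPM with 7 of 7 detected, interstitial macrophage markers at 298 and 119 CPM with 8 of 8 detected, and T cell markers at 4.40 and 30.8 CPM with 7 and 8 of 8 detected.

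In Def8-high cells 9 of 10 members were higher in the 1V209-Cho-Lip library with intervals above 1, and Nlrc5 was lower, although B2m and Psmb9 both stood at a log2 ratio of -0.07 with cells thinned to 1000 UMIs. Tap1 was at 139 CPM (125 to 154) in 1V209-Cho-Lip and 68.8 CPM (63.1 to 74.8) in PBS, a ratio of 2.02 (1.77 to 2.31). It was the only member called higher, where 13.1% of all 12041 genes were, and no member was called lower, where 12.1% were. Tap2 was at 100 and 74.4 CPM, which gives a ratio of 1.35 (1.16 to 1.56), and Psmb9 at 281 and 225 CPM, which gives a ratio of 1.25 (1.14 to 1.36). H2-K1 was at 1357 and 1185 CPM, which gives a ratio of 1.15 (1.10 to 1.19). The other ratios above 1 were 1.19 for Psmb8 and Tapbp, 1.13 for Psmb10, 1.10 for H2-D1 and 1.09 for B2m. Nlrc5 was at 37.4 and 50.3 CPM, which gives a ratio of 0.743 (0.592 to 0.926). The members had a median log2 ratio of 0.22 and all genes -0.02. Of all genes, 16.6% had an interval above 1 and 14.2% one below 1.

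The cells themselves overlapped. Tap1 in 1V209-Cho-Lip cells had a lowest value of 0, a median of 85.2 CPM and a highest value of 763 CPM, and in PBS cells a lowest value of 0, a median of 42.7 CPM and a highest value of 357 CPM. No UMI of Tap1 was seen in 2 of the 40 and 21 of the 128 cells. For Psmb8 the lowest, median and highest cells were at 172, 672 and 1553 CPM in 1V209-Cho-Lip and at 0, 523 and 1844 CPM in PBS. The Nlrc5 medians, 32.2 CPM in 1V209-Cho-Lip and 25.7 CPM in PBS, stood in the other order from its summed levels, with highest cells at 142 and 458 CPM. With 50 Def8 UMIs as the minimum, a single 1V209-Cho-Lip barcode that holds 85 Nlrc5 UMIs turned the log2 ratio of Nlrc5 to 0.38, in place of -0.43. Without the cells that had a Ptprc UMI, 22 and 69 cells remained and the log2 ratio of Tap1 was 0.99, in place of 1.01, while Nlrc5 was called lower at -0.74.

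Set against the median of the 17 gated types of their own library, the members of Def8-high cells divided differently in each library. In the 1V209-Cho-Lip library 6 members were called higher than that median and 1 lower, where 38.6% and 31.5% of all genes were. In the PBS library 3 members were called higher and 2 lower, where 36.5% and 33.2% of all genes were. Psmb10 stood first of 18 in both libraries, at 400 CPM in 1V209-Cho-Lip (3.59 times the median of the types) and 355 CPM in PBS (1.83 times). Tap1, Tapbp, Psmb8 and Psmb9 also stood first of 18 in the 1V209-Cho-Lip library, and in the PBS library they stood 11th, 2nd, 3rd and 7th. In 1V209-Cho-Lip the interval of Tap1 overlapped that of regulatory T cells, and Psmb9 that of general capillary endothelial cells. In PBS the Psmb10 interval overlapped that of pericytes. Types with too few cells were not ranked. Of these, mesothelial cells had more Tapbp (430 CPM) and mature dendritic cells more Psmb8 (825 CPM) in 1V209-Cho-Lip. Conventional type 1 dendritic cells had more Psmb9 in that library (367 CPM). H2-D1 stood 13th in both libraries, at 0.661 and 0.555 times the median.

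**Figure D4:**
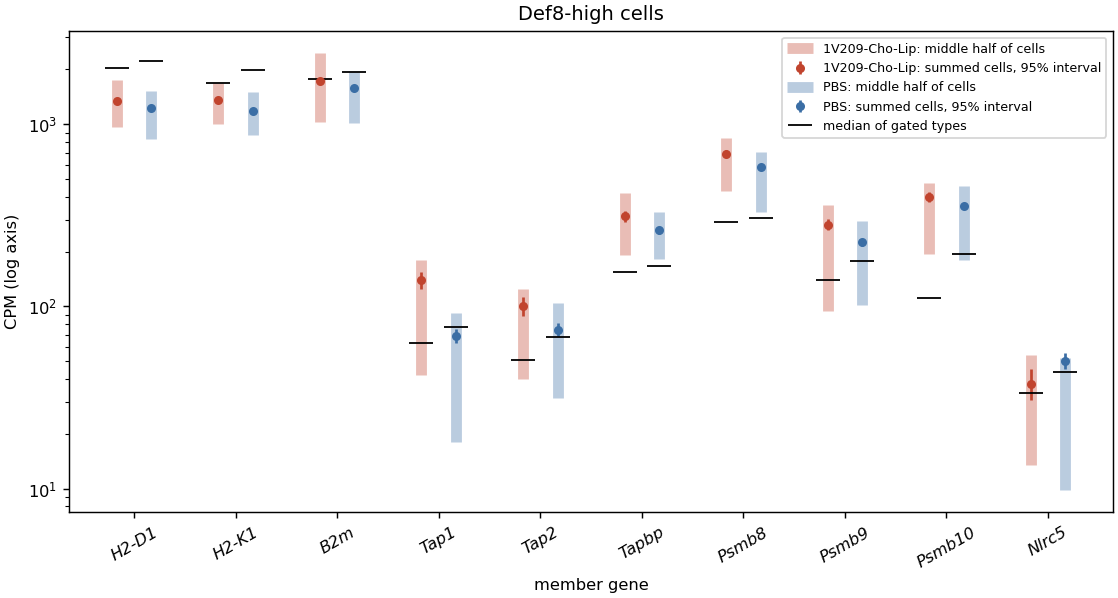
Levels of the 10 members in Def8-high cells, as CPM on a log axis, with 1V209-Cho-Lip (40 cells) left of PBS (128 cells). Points are summed cells with 95% Poisson intervals, pale bars span the lower to the upper quartile of the cells, and black ticks give the median of the 17 gated types. Tap1 is at 139 and 68.8 CPM, and H2-D1 is below its tick in both libraries.

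Other genes of the pathway were taken from 5 lists of 53 genes in all. Over the combinations of gene and type, other class I molecules had 3 of 122 called higher and 17 lower, with a median log2 ratio of -0.18. Other genes of the peptide loading complex had 1 of 131 called higher and 19 lower, with a median of -0.19. Constitutive proteasome subunits and activators had 11 of 148 higher and 6 lower, with a median of -0.11. Regulators had 44 of 257 higher and 28 lower, with a median of 0.01. Receptors of class I had 2 of 20 higher and 5 lower, with a median of -0.14. Beside these stand 13.1% of all combinations higher and 11.5% lower.

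Among the other class I molecules, H2-Q4, at 232 CPM over all 1V209-Cho-Lip cells and 273 CPM over all PBS cells, had a median ratio over types of 0.949, H2-Q6 of 0.856 and H2-T23, the ligand of an inhibitory NK receptor pair, of 0.966. In the loading complex, the disulfide isomerase Pdia3 was lower in 16 of 17 types with a median ratio of 0.763, and the chaperone Hspa5 in 14 of 17 with a median of 0.859. The translocon gene Sec61b had a median of 0.910. The proteasome activator genes Psme1 and Psme2 had medians of 0.854 and 0.769, and the assembly chaperone Pomp of 0.894. Psme3, another activator that is mostly nuclear, went the other way, above 1 in all 15 types measured and called higher in 8.

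Among regulators, Irf1, which is induced by interferon and binds class I promoters, had a median over types of 1.08 and a ratio of 1.41 (1.27 to 1.57) in Def8-high cells. Socs1, the feedback inhibitor of JAK signalling, was called higher in all 11 types measured, with ratios from 2.50 to 29.6. In Def8-high cells Socs1 was at 109 CPM in 1V209-Cho-Lip and 5.98 CPM in PBS, a ratio of 18.2 (13.4 to 25.4). Relb, an NF-kB subunit, was called higher in 8 of 15 types, and Rfxap, a subunit of the complex that binds the X box, in 6 of 7. Ciita, the class II transactivator, was called lower in 3 of 6. Ifngr1 and Jak1, at the head of the interferon-gamma pathway, had medians of 1.03 and 1.02. Ifngr2, the other chain of the interferon-gamma receptor, had a median of 1.48 over 14 types and was called higher in 6. Its ratio in Def8-high cells was 1.57 (1.27 to 1.94).

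Of the receptors, Pirb, an inhibitory receptor of myeloid cells, was at 110 CPM over all 1V209-Cho-Lip cells and 42.2 CPM over all PBS cells, while Cd8b1, a chain of the CD8 coreceptor, was at 20.9 and 54.0 CPM and Klrd1, an NK receptor chain, at 16.6 and 37.5 CPM. Within types Pirb had a median ratio of 1.30 over 7 types, Klrd1 of 0.931 over 5 and Cd8b1 of 0.736 over 2. Klrc1, the partner of Klrd1, was called lower in 2 of 4 types, and Klra4, an NK receptor, in its only measured type, with a ratio of 0.608. Cd8b1 and Klra4 are themselves gate markers, of CD8 T cells and NK cells. Their ratios in those cells therefore depend on how the cells were selected.

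The members tracked each other across types. Over the 17 types, H2-D1 and H2-K1 had a Pearson correlation of log2(CPM + 5) of 0.98 in 1V209-Cho-Lip and 0.99 in PBS. Tap1 and Psmb9 had 0.96 and 0.88, while Tap2 and Psmb10 had 0.53 and 0.82. Among 11807 genes ranked by likeness to the mean profile of the members, the 8 most alike that are no members were H2-K2 (0.958 and 0.943), Ppp1ca, H2-T23, Ddx39a, H2-Q4, Hnrnpu, Cfl1 and Nmi (0.894 and 0.941). H2-K2 is a near copy of H2-K1, so reads may be shared between them. The points share a library, its depth and its free RNA, and the correlations are descriptions only. In the mean profile club cells lay far below the rest, at -2.71 in 1V209-Cho-Lip and -2.90 in PBS. The next lowest, AT2 cells, lay at -1.26 and -1.22. The weight of club cells in the correlations was not tested.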

How the data were processed

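Single-cell RNA of pooled lungs was sequenced after 10x Genomics capture, 1 library per group. The deposited matrices hold UMI counts per gene and barcode, made by the authors with Cell Ranger 9.0.1 per the file headers and aligned to mm10 per the submitters' processing notes. The annotation release and the intron setting are not given in the sources used here. The labels speak of extracted total RNA and of xenografts, but the files hold barcoded single cells.

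Cells needed at least 500 UMIs, 200 genes and at most 20% mitochondrial UMIs. Scrublet (scanpy 1.11.5, Python 3.11.15) called 1455 and 1906 barcodes as doublets, 10.6% of 1V209-Cho-Lip and 13.09% of PBS cells, which stayed in except in an alternative. A gate asked for 3 detected markers (5 for neutrophils, 4 for AT1 and AT2 cells) and 3 more of an endothelial or fibroblast subtype, and T cells were split by Cd4, Cd40lg, Cd8a, Cd8b1 and Foxp3. Barcodes that passed 2 lineages (17.5% of 1V209-Cho-Lip and 15.7% of PBS cells) or no gate (10.3% and 15.6%) entered only the values over all cells. The thresholds of the gates, the Foxp3 requirement for regulatory T cells, the omission of an erythroid gate and the exclusion of barcodes with 10 to 99 Def8 UMIs were set after seeing the data. The members, markers and lists were chosen with earlier results of these data known. All 10 members are described. Of each list the 3 genes with most UMIs and those called one way in at least 50% of their types are named, except for 1 gene that is not reported here, and other genes were named after their values were seen.

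UMIs were summed per library and type over all genes and divided by the total, with NumPy 2.4.6 and SciPy 1.17.1. A count of 0 was set to a floor of 3 counts for ratios. With 1 library per group there is no replicate error, and intervals cover counting error only. The code was tested on simulated data. Alternatives were other scalings, denominators, gates, doublet and mitochondrial filters, thinning to 1000 UMIs per cell, other Def8 minimums and cells left out.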

Additional observations from a re-analysis of the deposited data

Results flagged for a closer look

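Tap1 was past 1.5-fold in opposite directions in different cells, with intervals that leave out 1. Its ratio of 1V209-Cho-Lip over PBS was 2.02 in Def8-high cells, against 0.426 in AT2 cells, 0.635 in interstitial macrophages and 0.547 in regulatory T cells. With 1 library per group the difference between these cells was not tested. Summed neutrophil markers moved the same way in all of them, at 779 CPM in 1V209-Cho-Lip and 130 CPM in PBS for Def8-high cells and at 336 and 150 CPM for AT2 cells, and their part in the result was not tested.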

How the results depend on the processing

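No paired analysis was possible because each group had 1 library. Of 740 single log2 ratios recomputed under the alternatives, 652 stayed within their counting interval or, for medians, the spread over types, 88 moved beyond it, and no called value changed sign. Some of the 652 could not move, because leaving out pericytes or granule-rich neutrophils does not touch other types. A minimum of 100 UMIs likewise drops ratios within a type without changing those kept. The number 652 thus holds values that were fixed in advance. Of 102 counts, 86 stayed within 1.5 times. Over all cells, the 1 member called lower became 2 without Rn18s-rs5, mitochondrial and haemoglobin genes in the total, with CPM averaged over single cells, without Scrublet calls, with cells thinned to 1000 UMIs and without Def8-high cells. It became 0 with median-of-ratios or TMM scaling, with equal weight per gated type and without neutrophil-gated cells. Median-of-ratios scaling moved all log2 ratios over all cells by 0.20, so that H2-D1 and H2-K1 stood at 0.18 and 0.04 in place of -0.02 and -0.15. Within types, the 1 combination called higher became 3 with CPM averaged over single cells, 2 with either scaling and 0 with at least 100 UMIs, and the 23 called lower became 15 with at least 100 UMIs. In Def8-high cells, 1 member in place of 0 was called lower without cells that had a Ptprc UMI, an alternative chosen after seeing the data. Against the gated types, the 1 member called lower in 1V209-Cho-Lip became 0 with CPM averaged over single cells. Tap1 in Def8-high cells ranged from 0.91 to 1.13 over its 9 alternatives. In interstitial macrophages, Tapbp stood at 0.01 in place of -0.35 with CPM averaged over single cells, and the other members kept their sign in every alternative run. Thinned to 1000 UMIs, B2m and Psmb9 in Def8-high cells both stood at -0.07, in place of 0.12 and 0.32. Leaving out granule-rich neutrophils, the pericyte gate or 1 PBS pericyte barcode was also chosen after seeing the data, and without that barcode 20 combinations in place of 23 were called lower. The cause of these changes was not tested. Depth limits Nlrc5 and the transporter genes in small types.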

Other observations

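Dendritic cells were too few in at least 1 library for the comparison and are given as levels. Mature dendritic cells, which carry Ccr7 and present antigen to T cells, numbered 15 in 1V209-Cho-Lip and 38 in PBS. They had H2-D1 at 3260 CPM (2925 to 3624) in 1V209-Cho-Lip and 4062 CPM (3805 to 4332) in PBS, and Psmb9 at 341 CPM (239 to 472) and 637 CPM (538 to 749). Their B2m was at 3393 CPM (3051 to 3764) and 4843 CPM (4562 to 5137), where the 17 compared types reached 3620 and 3627 CPM. Their Tap2 was at 190 and 196 CPM, where those types reached 150 and 216 CPM. Their Nlrc5 was at 142 and 118 CPM, where those types reached 118 and 170 CPM. Conventional type 1 dendritic cells, known for cross-presentation on class I, numbered 45 and 60, with Psmb9 at 367 CPM (315 to 427) and 532 CPM (469 to 601) and H2-D1 at 1739 CPM and 1761 CPM. Psmb9 levels in these cells lay above those of all 17 compared types in both libraries, which reached 263 CPM in 1V209-Cho-Lip and 446 CPM in PBS. Mesothelial cells, the lining of the lung surface, numbered 46 and 51 and had H2-K1 at 1357 CPM (1235 to 1488) and 1975 CPM (1822 to 2138), while Psmb9 was at 146 and 135 CPM.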
